A study of Homo sapiens with 24 samples.

Results

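The nucleolus is where ribosomes are assembled. RNA polymerase I transcribes the ribosomal RNA precursor there, small nucleolar ribonucleoproteins modify and guide its cleavage, and abundant nucleolar proteins carry the particles forward. Proliferating cells, colorectal cancer cells among them, are known for large nucleoli and high demand for these factors. The 10 genes described here, of 20426 genes counted in all 24 libraries, were chosen by name and Ensembl identifier for these roles. The rule did not use their values, but earlier results of these data were known when it was set. FBL, NOP56 and NOP58 encode the methyltransferase and core proteins of box C/D particles, which methylate ribosomal RNA. DKC1 encodes the pseudouridine synthase of box H/ACA particles, and NOP2 a methyltransferase of the large-subunit ribosomal RNA. NPM1 and NCL encode nucleophosmin and nucleolin, the abundant nucleolar proteins. POLR1A and POLR1B encode the largest and second-largest subunits of RNA polymerase I, and UBTF a factor that binds ribosomal DNA and recruits the polymerase.

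The libraries came from 6 cultured populations of human colon cells. These were 841CON, labelled as a normal epithelial line, HCT116, HCT15 and SW620, which are colorectal cancer lines, HCT15 titled with PLVX (the vector line here, labelled wild type), and HCT15 labelled as overexpressing COPS7B. COPS7B belongs to the COP9 signalosome, which removes NEDD8 from cullins, and its own level was not analysed here. Each population gave 2 libraries of input RNA (INPUT) and 2 of ribosome-protected fragments (RPF, or footprints), and all cells had received cycloheximide at 100 µg/mL for 10 minutes, which stalls ribosomes on their mRNAs. According to the labels, HCT15 was grown in DMEM, SW620 in L15 in air, HCT116 in RPMI-1640 and 841CON in EMEM, so that line and medium cannot be told apart. The design compares translational efficiency (TE, a gene's footprints set against its RNA) in each cancer line with that in 841CON. The series title adds COPS7B, which the vector line serves to test. Whether replicates were separate cultures is not stated, so the spread behind the p-values may be a technical one. Epithelial markers were not analysed here.

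Library depth set limits that return below. INPUT libraries held 1237231 to 9105954 counts and RPF libraries 84262 to 4679279, with the SW620 footprint libraries lowest, at 98043 and 84262. The replicate pairs of both HCT116 groups, of 841CON RPF and of COPS7B RPF were far closer than the other 8 pairs, and results are also given with each such pair summed into 1 library where that ends a call. Levels are CPM, a gene's counts scaled by the size of the library, and changes are fitted log2 values with their standard error (SE). A call means that edgeR's quasi-likelihood test gave a p below 0.05 after Benjamini-Hochberg adjustment over all genes tested. Scaling sets the middle of the genes to no change, yet the median log2 TE change over all genes tested was -0.60 in HCT116, 0.29 in HCT15 and -0.31 in SW620. The share of calls that were higher moved with the scaling. For TE in SW620 it was 44.9%, against 63.1% with library totals only and 64.8% with DESeq2, and for TE in HCT15 it was 69.4% against 54.2% with DESeq2. For footprints in SW620 it was 48.9% against 65.7% and 63.4%, for mRNA in HCT15 47.4% against 61.6% with library totals only, and for footprints in COPS7B 45.7% against 57.6%.

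The starts of 5 of these genes are shown because the COPS7B comparison turns on NPM1 and FBL. The other 3 are given beside them as genes of the same roles. Many mRNAs of the translation machinery begin with a C followed by a run of pyrimidines, the terminal oligopyrimidine start. The windows below hold 15 bases before and 15 from the start annotated by RefSeq (GRCh38.p14), 5′ to 3′ on the gene's strand. Capitals mark a C at the annotated start and the pyrimidines that follow it without a break, where there are at least 4 of them.
NPM1 (chr5:171387834-171387863, plus strand): cggggagcctgcgtcCTTTCCCTggtgtga
FBL (chr19:39846365-39846394, minus strand): ccgcgcgcctgcgctCTTTTCCacgtgcga
NCL (chr2:231464470-231464499, minus strand): tcagtctttcgcctcagtctcgagctctcg
NOP56 (chr20:2652617-2652646, plus strand): gagcgcgctagccgcattgcgagccgaacc
DKC1 (chrX:154762849-154762878, plus strand): gggcagtgcgcgggtgggtgggtcctagca
Of 9 of the genes with a start window in RefSeq, NPM1 and FBL were those with such a run, of 8 and 7 pyrimidines counting the C. A second annotated start of NPM1 lacks it. Among all 35116 windows in the table, 4.07% held such a start. The letters CACGTG, which read the same on both strands and form the E-box bound by MYC family factors, were found in the windows of FBL and NOP2 and in 7.26% of all windows of 300 bases. In FBL they lie at bases 7 to 12 counted from the annotated start, within the sequence printed above, and begin with the last base of the pyrimidine run. A match of letters is a description of the sequence and shows neither the start used in these cells nor a bound factor.

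With all libraries in the fit, 6 or 7 of the 10 genes had a higher RNA level in each cancer line than in 841CON. In RNA from whole cultures, more cells that express a gene and more RNA per cell cannot be told apart. In HCT116, 7 of 10 were called higher and none lower, where 19.0% of 11938 genes were called higher and 21.0% lower. The median log2 change of the 10 was 1.70, against -0.04 over all genes. HCT15 had 6 of 10 called higher (16.8% of all genes) and none lower (18.6%), with a median of 1.60. In SW620 7 of 10 were called higher (21.8% of all genes) and none lower (22.6%), with a median of 1.53. FBL, DKC1, NOP56, NOP58, NPM1 and POLR1B were called higher in all 3 lines. All 3 comparisons share the 841CON libraries. The count in HCT116 was 3 of 10 with close pairs summed, and that in SW620 was 4 of 10 without SW620 INPUT replicate 2. One of the 10, NOP2, had an average of a few INPUT counts per library and entered the fit through 3 INPUT libraries of SW620 and the vector line, so its RNA call in SW620 carries no weight. Without it, 6 of 9 were called higher in SW620, with a median log2 change of 1.41.

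Footprints were called higher for 7 of the genes in HCT116 and 6 in HCT15. In HCT116, 22.6% of all genes were called higher, and 1 of the 10 was called lower (36.7% of all genes). In HCT15, 28.8% of all genes were called higher, and none of the 10 was lower (21.1%). With close pairs summed, 4 were called in HCT116 and 3 in HCT15, and without 841CON RPF replicate 2, 3 were called in HCT15. In SW620, 2 of 10 were called higher (18.6% of all genes) and 1 lower (19.4% of all genes), a share close to that of all genes. The SW620 footprint libraries held 0 to 99 counts for any of these genes. TE was tested for 9 of the 10 genes, as NOP2 had too few INPUT counts. It was called higher for 1 and lower for 2 in HCT116 (14.9% and 30.7% of all genes), for none in HCT15 (11.5% and 5.08%) and for 0 higher and 2 lower in SW620 (8.25% and 10.1%). In HCT15, 1 of the 9 had an unadjusted p under 0.05, and DESeq2 called none.

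**Figure D1:**
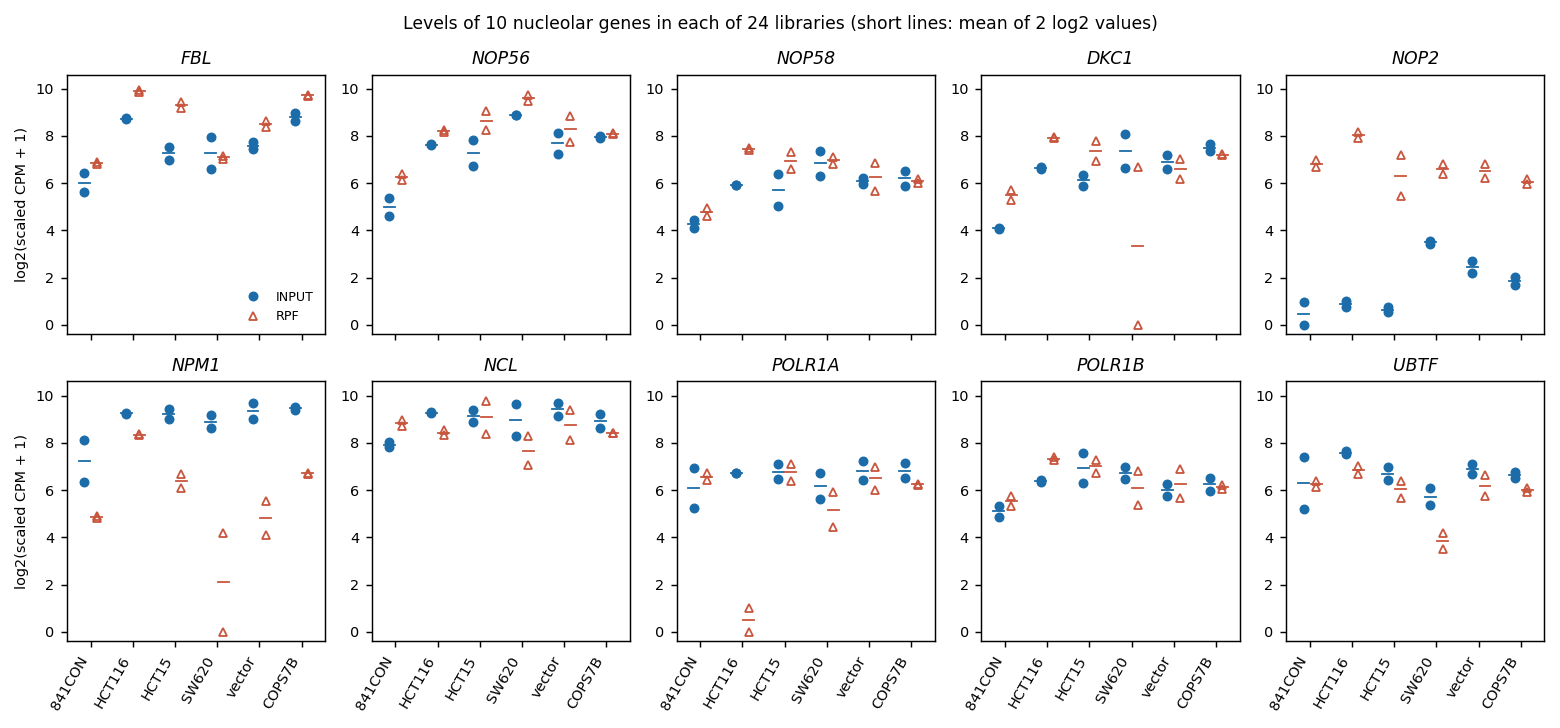
Level of each gene in each of the 24 libraries as log2(scaled CPM + 1), by population, with filled circles for INPUT, open triangles for RPF and a short line at the mean of the 2 log2 values. INPUT of FBL, NOP56, NOP58 and DKC1 lies lowest in 841CON, NOP2 INPUT lies near 0 in 841CON, HCT116 and HCT15, and POLR1A footprints are near 0 in HCT116 alone.

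FBL (ENSG00000105202, chr19:39834458-39846379), the methyltransferase of box C/D particles, had the lowest RNA in 841CON, at 84.8 and 48.3 CPM. The level was 428 and 414 CPM in HCT116, 182 and 127 in HCT15, and 96.2 and 247 in SW620. No cancer-line library overlapped those of 841CON, although the lower SW620 library came near the higher 841CON library. The log2 change was 2.68 (SE 0.39, adjusted p = 3.2e-05, edgeR) in HCT116, 1.24 (SE 0.37, adjusted p = 0.014) in HCT15 and 1.40 (SE 0.38, adjusted p = 0.0054) in SW620. FBL footprints were 118 and 112 CPM in 841CON, 988 and 919 in HCT116, 578 and 699 in HCT15 and 128 and 143 in SW620. Footprints rose by 3.05 (SE 0.39, adjusted p = 3.1e-06) in HCT116 and by 2.47 (SE 0.38, adjusted p = 4.1e-05) in HCT15 on the log2 scale. In SW620 the footprint change was 0.23 (SE 0.43, adjusted p = 0.74), from 15 and 14 counts. The HCT15 RNA call was lost without 841CON INPUT replicate 2 (0.87, adjusted p = 0.13). The SW620 RNA call was lost without SW620 INPUT replicate 2 (0.56, adjusted p = 0.28) and without 841CON INPUT replicate 2 (1.03, adjusted p = 0.064). The FBL calls in HCT116 held in each alternative run.

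NOP56 (ENSG00000101361, chr20:2652632-2658393), a core protein of the same particles, had RNA at 23.6 and 40.5 CPM in 841CON. It was 200 and 195 CPM in HCT116, 223 and 104 in HCT15, and 476 and 478 in SW620, where the replicates nearly coincided. The log2 changes were 2.58 (SE 0.45, adjusted p = 1.7e-04, edgeR), 2.31 (SE 0.44, adjusted p = 4.9e-04) and 3.85 (SE 0.47, adjusted p = 4.4e-06). Footprints moved with the RNA in every cancer line. They stood at 82.1 and 68.6 CPM in 841CON, 307 and 284 in HCT116, 300 and 529 in HCT15, and 847 and 714 in SW620, with no overlap. The footprint changes were 1.97 (SE 0.43, adjusted p = 6.7e-04), 2.46 (SE 0.44, adjusted p = 1.5e-04) and 3.37 (SE 0.46, adjusted p = 1.8e-05). NOP56 in SW620 rested on 99 and 70 footprint counts, the most of any of the 10 genes there. Of its 6 calls against 841CON, 5 held in each alternative run, and the footprint call in HCT116 was lost with close pairs summed (1.87, adjusted p = 0.052). RefSeq places 5 small nucleolar RNA genes inside NOP56, 4 inside NOP58, 3 inside NCL and 2 inside DKC1. Reads from these hosted RNAs could not be told from those of the host where they were counted together.

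NOP58 (ENSG00000055044, chr2:202265763-202303661), the partner of NOP56 in the box C/D core, had RNA at 16 and 20.5 CPM in 841CON. The levels were 60.1 and 59.5 CPM in HCT116, 82 and 31.7 in HCT15, and 78.7 and 164 in SW620. The RNA changes were 1.68 (SE 0.49, adjusted p = 0.01, edgeR), 1.62 (SE 0.49, adjusted p = 0.014) and 2.71 (SE 0.50, adjusted p = 2.8e-04), with no overlap between groups. In HCT15 the call was lost without HCT15 INPUT replicate 1 (0.97, adjusted p = 0.18), the library with the higher level, and with only the compared libraries (1.75, adjusted p = 0.087). Footprints were 29.7 and 23.1 CPM in 841CON, 181 and 167 in HCT116, 94.8 and 159 in HCT15, and 137 and 112 in SW620. They rose 6.51-fold in HCT116 (log2 SE 0.50, adjusted p = 1.3e-04), 4.78-fold in HCT15 (log2 SE 0.49, adjusted p = 8.9e-04) and 4.69-fold in SW620 (log2 SE 0.56, adjusted p = 0.0043). With close pairs summed the RNA call in HCT116 (1.81, adjusted p = 0.064) and the footprint call in SW620 (2.09, adjusted p = 0.064) were lost, the latter also without SW620 RPF replicate 1 (2.06, adjusted p = 0.053). NOP56 and NOP58 were thus the genes called higher in RNA and in footprints in all 3 cancer lines. TE of FBL, NOP56 and NOP58 was called in no line against 841CON, with log2 TE changes between -1.17 and 1.23.

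DKC1 (ENSG00000130826, chrX:154762864-154777689), the pseudouridine synthase, had RNA at 16 and 15.9 CPM in 841CON. Levels were 101 and 96.2 CPM in HCT116, 81.3 and 57.4 in HCT15, and 99.5 and 272 in SW620. The groups did not overlap in any line. The changes were 2.62 (SE 0.59, adjusted p = 0.0016, edgeR), 2.12 (SE 0.58, adjusted p = 0.0076) and 3.54 (SE 0.60, adjusted p = 1.3e-04), and all 3 calls held in each alternative run. Footprints rose from 52 and 38.5 CPM in 841CON to 245 and 240 in HCT116 (2.41, SE 0.56, adjusted p = 0.0011) and to 121 and 217 in HCT15 (1.90, SE 0.55, adjusted p = 0.0077). The HCT116 footprint call was lost with close pairs summed (2.29, adjusted p = 0.068). The HCT15 footprint call was lost with close pairs summed (1.71, adjusted p = 0.14), without 841CON RPF replicate 2 (1.71, adjusted p = 0.075) and without HCT15 RPF replicate 2 (1.42, adjusted p = 0.074). In SW620 DKC1 had 12 footprint counts in replicate 1 and 0 in replicate 2.

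From those counts the DKC1 footprint change in SW620 was 0.25 (SE 0.74, adjusted p = 0.86, edgeR), while its RNA change was 3.54. DKC1 footprints in SW620 were 103 and 0 CPM, on both sides of the 52 and 38.5 of 841CON. Over the alternative runs the footprint change was between -9.68 and 1.16. Whether footprints rose with the RNA thus cannot be told from these counts. TE, which sets footprints against RNA, fell by 3.29 on the log2 scale (SE 0.91, adjusted p = 0.018, edgeR). From the pooled footprint counts and mean INPUT CPM, TE was 9.92-fold lower, with a 95% counting interval of 5.55 to 19.5. The call was lost without SW620 RPF replicate 2, the library with 0 counts (-2.38, adjusted p = 0.065). It was also lost without SW620 INPUT replicate 2 (-2.38, adjusted p = 0.1), without 841CON RPF replicate 1 (-3.06, adjusted p = 0.063), with close pairs summed (-3.43, adjusted p = 0.082) and with only the compared libraries (-3.19, adjusted p = 0.12). Counting intervals cover the counting error of the pooled footprints only and leave out the spread between replicates. For TE they also take the mean INPUT levels as exact. The reads carry no molecular identifiers, so copies of 1 molecule cannot be recognised.

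NOP2 (ENSG00000111641, chr12:6556871-6568291), the methyltransferase of large-subunit ribosomal RNA, was nearly absent from the INPUT counts and present in the footprints. Its INPUT libraries held 0 to 15 counts each and 61 in all 12, while the RPF libraries held 8 to 585 each and 2561 in all. Its footprint CPM was 9.34 to 318 times its INPUT CPM, depending on the population. The ratio was also taken over 11575 genes with at least 100 footprint counts in all, with 0.1 CPM added to each level. Of these genes, 37 had a ratio of at least 8 in all 6 populations. On this measure the lowest NOP2 ratio was 9.26, so the limit chosen lay below it and included NOP2. No other RefSeq gene overlaps NOP2. Tables of INPUT hold 60623 genes, while the RPF tables are limited to 20426 of them. Reads that fit several genes made up 12.1% to 17.1% of assigned and ambiguous reads in the INPUT libraries of the vector and COPS7B lines, and 3.42% to 3.98% in their RPF libraries. Whether this bears on the NOP2 counts was not tested.

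Footprints of NOP2 were 125 and 102 CPM in 841CON and 240 and 288 in HCT116. The change of 1.21 (SE 0.48, adjusted p = 0.036, edgeR) was called, but the call held in 3 of 10 alternatives. It was lost with close pairs summed (1.11, adjusted p = 0.36) and without any single library of the compared RPF groups (1.08 to 1.37). In HCT15 NOP2 footprints were 42.8 and 144 CPM and in SW620 111 and 81.6, overlapping 841CON in both lines. SW620 had the highest NOP2 INPUT of the lines, at 10.9 and 9.71 CPM from 10 and 15 counts, against 1 and 0 counts in 841CON. HCT116 had 1 and 2 INPUT counts and HCT15 had 3 and 1.

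**Figure D2:**
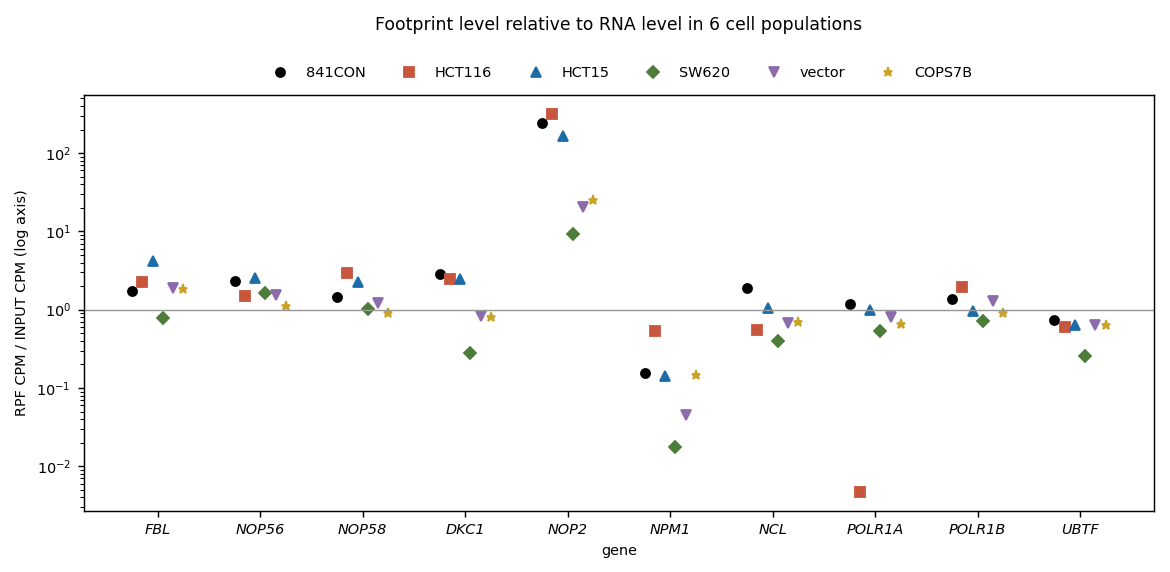
Mean RPF CPM divided by mean INPUT CPM for each gene in the 6 populations, on a log axis, 1 symbol per population. NOP2 lies between 9.34 and 318, NPM1 between 0.0177 and 0.533, and POLR1A in HCT116 at 0.00474, while its other populations lie between 0.529 and 1.19.

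NPM1 (ENSG00000181163, chr5:171387116-171410900), the nucleophosmin gene, was higher in the RNA of each cancer line, although its 841CON replicates were far apart. Those read 80.1 and 280 CPM, against 597 and 611 in HCT116, 685 and 515 in HCT15, and 389 and 576 in SW620. The groups did not overlap. The changes were 1.73 (SE 0.49, adjusted p = 0.0083, edgeR), 1.72 (SE 0.49, adjusted p = 0.0097) and 1.41 (SE 0.49, adjusted p = 0.024). Without 841CON INPUT replicate 1, the low library, the change was 1.14 (adjusted p = 0.051) in HCT116, and 0.72 (adjusted p = 0.21) in SW620. With close pairs summed these calls were also lost (adjusted p = 0.075 and 0.088), and with only the compared libraries those in HCT15 and SW620 (adjusted p = 0.064 and 0.09). The SW620 call was lost too without SW620 INPUT replicate 2 (1.09, adjusted p = 0.16).

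Footprint CPM of NPM1 was below its INPUT CPM in every population, at ratios of 0.0177 to 0.533. Among the 11575 genes with at least 100 footprint counts, this ratio lay between the 0.363 and the 45 percentile. NPM1 footprints read 28.6 and 27 CPM in 841CON, 326 and 317 in HCT116, 102 and 66.7 in HCT15, and 17.1 and 0 in SW620, the last from 2 and 0 counts. HCT116 stood highest of the 6 populations, with no overlap with the others. Footprints rose by 3.53 (SE 0.54, adjusted p = 2.1e-05, edgeR) in HCT116 and by 1.59 (SE 0.51, adjusted p = 0.015) in HCT15. The HCT116 call held in each alternative run, and the HCT15 call was lost with close pairs summed (1.48, adjusted p = 0.17), with only the compared libraries (1.45, adjusted p = 0.095), and without 841CON RPF replicate 1, 841CON RPF replicate 2 or HCT15 RPF replicate 1 (1.26 to 1.64). RefSeq lists 50 pseudogenes of NPM1 by symbol, against 3 of NOP56, 2 of NCL, 1 of FBL and 0 of the other 6 genes. Multiply aligned reads were 22.4% to 27.2% of the RPF reads and 16.6% to 24.7% of the INPUT reads in the vector and COPS7B libraries. Footprints are short, and how many NPM1 reads were set aside as multiply aligned was not tested.

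TE of NPM1 was called higher in HCT116, at 1.80 (SE 0.70, adjusted p = 0.041, edgeR). That call held in 5 of 16 alternatives, and with close pairs summed the change was 1.63 (adjusted p = 0.32). Without 841CON INPUT replicate 2, the high library, the change was 0.61 (adjusted p = 0.43), and without 841CON RPF or HCT116 libraries, 1 at a time, the adjusted p was between 0.081 and 0.11. In SW620 the TE change of NPM1 was -2.99 (SE 1.13, adjusted p = 0.071), which did not pass. From pooled footprint counts and mean INPUT CPM it was 8.1-fold lower, with a 95% counting interval of 2.19 to 67.7. That interval takes INPUT as exact.

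NCL (ENSG00000115053, chr2:231453531-231464484), the nucleolin gene, was called higher in RNA in HCT116 alone and in footprints in no cancer line. Its RNA was 223 and 260 CPM in 841CON, 635 and 605 in HCT116, 660 and 472 in HCT15, and 308 and 789 in SW620. The HCT116 change of 1.36 (SE 0.50, adjusted p = 0.035, edgeR) was called, and was lost with close pairs summed (1.48, adjusted p = 0.14) and without any single library of the compared INPUT groups (1.28 to 1.48). The changes of 1.22 in HCT15 (SE 0.49, adjusted p = 0.06) and 1.18 in SW620 (SE 0.50, adjusted p = 0.059) just missed. They were called in 4 of 12 and 5 of 11 alternatives, DESeq2 among them (adjusted p = 0.033 and 0.037). NCL RNA was not called different among the 3 cancer lines (adjusted p = 0.96, F test in edgeR), so HCT116 does not stand apart. Footprints were 495 and 416 CPM in 841CON, 318 and 367 in HCT116, 335 and 861 in HCT15, and 308 and 133 in SW620. None of these passed, and the HCT15 libraries lay on both sides of 841CON. TE of NCL fell by 1.77 (SE 0.70, adjusted p = 0.045) in HCT116 and by 2.21 (SE 0.73, adjusted p = 0.041) in SW620. These calls held in 4 of 16 and 6 of 15 alternatives, and both were lost with close pairs summed (-1.98, adjusted p = 0.19, and -2.33, adjusted p = 0.14). In HCT116 each library left out in turn ended the call, with changes of -1.64 to -1.89. In SW620 it was lost with library totals only (-1.86, adjusted p = 0.083), without SW620 INPUT replicate 2 (-1.38, adjusted p = 0.23), SW620 RPF replicate 2 (-1.76, adjusted p = 0.17), 841CON INPUT replicate 1, or either 841CON RPF library.

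**Figure D3:**
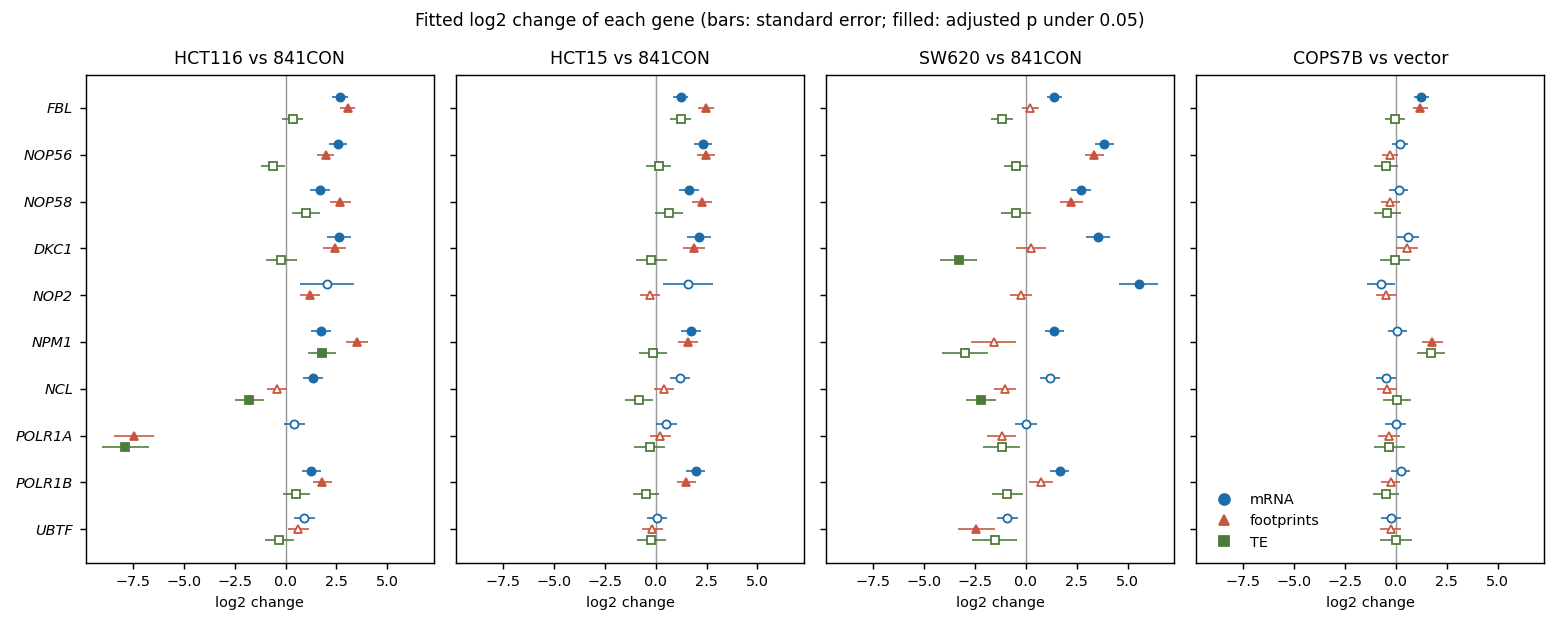
Fitted log2 change of each gene in mRNA (circles), footprints (triangles) and TE (squares) for the 3 cancer lines against 841CON and for COPS7B against the vector line, with bars for the standard error and filled symbols where the adjusted p is under 0.05. The box C/D genes and DKC1 lie to the right of 0 for mRNA in the 3 cancer lines, and POLR1A in HCT116 lies far to the left for footprints and TE, at -7.43 and -7.87.

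POLR1A (ENSG00000068654, chr2:86020216-86105886) and POLR1B (ENSG00000125630, chr2:112542036-112579818), which form the catalytic core of RNA polymerase I together, came apart in HCT116. POLR1A RNA was 104 and 105 CPM there, within the wide range of 841CON (122 and 36.6 CPM), and its change of 0.44 (SE 0.53, adjusted p = 0.55, edgeR) did not pass. That change was 1.54 (adjusted p = 0.027) without 841CON INPUT replicate 1 and -0.22 (adjusted p = 0.81) without 841CON INPUT replicate 2. In HCT15 the same libraries moved POLR1A RNA from 0.53 (adjusted p = 0.48) to 1.70 (adjusted p = 0.019) and to -0.12 (adjusted p = 0.91). Its HCT116 footprint libraries held 1 and 0 counts, against 280 and 110 in 841CON, 118 and 563 in HCT15, and 7 and 2 in the much shallower SW620 libraries. Footprints were 199-fold lower than in 841CON from pooled counts, with a 95% counting interval of 35.5 to 7878, and the fitted change was -7.43 (SE 0.98, adjusted p = 4.2e-06). TE from these counts and mean INPUT CPM was 263-fold lower, with an interval of 47 to 10429 that takes INPUT as exact. The fitted TE change was -7.87 (SE 1.17, adjusted p = 4.0e-05, edgeR). The TE call held in 15 of 15 alternatives and the footprint call in 11 of 11. The fitted sizes depend on the prior count, since these counts are 1 and 0.

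POLR1B in the same HCT116 footprint libraries had 154 and 173 counts. The ratio of POLR1A to POLR1B footprint counts was 0.00649 and 0 in HCT116, 1.97 and 2.2 in 841CON, 0.787 and 0.892 in HCT15, 0.538 and 0.5 in SW620, 1.28 and 1.09 in the vector line, and 1.04 and 1.15 in COPS7B. In INPUT the ratio was 1.31 and 1.24 in HCT116, inside the 0.543 to 4.3 of the other populations. POLR1A was not the sole gene of this kind in HCT116. Of 4133 genes whose INPUT counts averaged 100 or more there, 308 (7.45%) had at most 1 footprint count in the 2 libraries. That share was 2.83% in 841CON, 2.75% in SW620, 0.66% in HCT15, 0.204% in the vector line and 0.133% in COPS7B. Both HCT116 pairs were among the close pairs.

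POLR1B RNA was higher in the 3 cancer lines, from 28.3 and 38.9 CPM in 841CON to 79.5 and 84.8 in HCT116, 190 and 77.4 in HCT15, and 88.6 and 126 in SW620. The changes were 1.27 (SE 0.47, adjusted p = 0.038, edgeR), 1.97 (SE 0.47, adjusted p = 0.0031) and 1.66 (SE 0.48, adjusted p = 0.0082). The HCT15 call held in each alternative run. The HCT116 call was lost with close pairs summed (1.40, adjusted p = 0.14) and without any single library of the compared INPUT groups (1.11 to 1.54, adjusted p = 0.059 to 0.1), and that in SW620 without SW620 INPUT replicate 2 (1.37, adjusted p = 0.075). Footprints were 52.8 and 38.5 CPM in 841CON, 153 and 168 in HCT116, 105 and 155 in HCT15, and 111 and 40.8 in SW620. They rose by 1.80 (SE 0.47, adjusted p = 0.0029) in HCT116 and by 1.51 (SE 0.47, adjusted p = 0.012) in HCT15. With close pairs summed these were 1.68 (adjusted p = 0.1) and 1.32 (adjusted p = 0.17), and the HCT15 call was also lost without 841CON RPF replicate 2 (1.31, adjusted p = 0.099) or HCT15 RPF replicate 2 (1.20, adjusted p = 0.083).

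UBTF (ENSG00000108312, chr17:44205040-44221304), which recruits the polymerase to ribosomal DNA, had no RNA call in any cancer line with all libraries in the fit, and its values turned on which 841CON library was kept. Its 841CON INPUT replicates read 170 and 35.9 CPM, far apart. The other lines read 201 and 181 in HCT116, 124 and 84.4 in HCT15, and 40.5 and 66.1 in SW620. HCT116 lay above the higher 841CON library, and HCT15 and SW620 lay inside the 841CON range. The RNA changes were 0.93 (SE 0.51, adjusted p = 0.15, edgeR), 0.06 (SE 0.50, adjusted p = 0.97) and -0.90 (SE 0.52, adjusted p = 0.17) in HCT116, HCT15 and SW620. Without 841CON INPUT replicate 1 they were 2.44 (adjusted p = 3.4e-04), 1.64 (adjusted p = 0.0066) and 0.52 (adjusted p = 0.35). Without 841CON INPUT replicate 2 they were 0.17 (adjusted p = 0.81), -0.70 (adjusted p = 0.21) and -1.65 (adjusted p = 0.004). UBTF footprints were 81.4 and 68.6 CPM in 841CON, 102 and 130 in HCT116, 49.8 and 83.1 in HCT15, and 17.1 and 10.2 in SW620. The SW620 change of -2.43 (SE 0.90, adjusted p = 0.04, edgeR) was called from 2 and 1 counts. From pooled counts it was 5.53-fold lower, with a 95% counting interval of 1.88 to 27. It held in 3 of 11 alternatives, did not pass with library totals only (-1.83, adjusted p = 0.12), DESeq2 (-2.11, adjusted p = 0.08) or close pairs summed (-2.55, adjusted p = 0.075), and was lost without any single library of the compared RPF groups (-2.14 to -2.88). UBTF overlaps the antisense gene ATXN7L3-AS1 in RefSeq, POLR1A 1 long noncoding gene and POLR1B 2. The sources used here do not give the strand setting of the counting, so their reads cannot be told apart.

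The 3 cancer lines differed among themselves for some of the genes. In an F test over HCT116, HCT15 and SW620, RNA differed for 4 of 10, or 3 of 9 without NOP2, where 45.9% of all genes differed, so that the share is near the background. These were FBL (adjusted p = 0.0042, edgeR), highest in HCT116, NOP56 (adjusted p = 0.0082), highest in SW620, UBTF (adjusted p = 0.022), highest in HCT116 and lowest in SW620, and NOP2 (adjusted p = 5.4e-04). NOP2 passed the filter through SW620, where it was high, so its value carries no weight. TE differed for 4 of 9, where 52.8% of all genes differed. These were POLR1A (adjusted p = 1.7e-04), lowest in HCT116, NPM1 (adjusted p = 0.0028), lowest in SW620 and highest in HCT116, FBL (adjusted p = 0.0054), highest in HCT15 and lowest in SW620, and DKC1 (adjusted p = 0.011), lowest in SW620. The FBL ratio of mean footprint to mean INPUT CPM was 2.26 in HCT116, 4.13 in HCT15 and 0.79 in SW620. With close pairs summed, none of the 3 RNA calls other than NOP2 remained, and of the TE calls POLR1A did. UBTF RNA was also lost without HCT116 INPUT replicate 1 or SW620 INPUT replicate 1, NOP56 RNA without SW620 INPUT replicate 1, and DKC1 TE without SW620 INPUT replicate 2 (adjusted p = 0.093) or SW620 RPF replicate 2 (adjusted p = 0.051).

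Few of these genes were called between the line labelled as overexpressing COPS7B and the vector line. With 10 genes, the counts are near the shares of all genes. RNA was called higher for 1 of 10 (9.16% of all genes) and lower for none (8.35%), and footprints higher for 2 of 10 (7.92%) and lower for none (9.42%). TE was called for 0 of 9 genes and for 0 of 9542 genes in all, by edgeR's quasi-likelihood test and by DESeq2. Of the 9542, 132 had an unadjusted p under 0.05 in edgeR, and 1 of these was among the 9. The median log2 change of the 10 genes was 0.10 in RNA and -0.27 in footprints, against 0.07 and 0.05 over all genes.

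FBL was the gene called in both measures. Its RNA was 172 and 213 CPM in the vector line and 506 and 401 in COPS7B, and its footprints 336 and 396 against 830 and 850, with no overlap in either. The changes were 1.24 (SE 0.37, adjusted p = 0.023, edgeR) in RNA and 1.20 (SE 0.36, adjusted p = 0.028) in footprints, and that of TE was -0.04 (SE 0.51, adjusted p = 1). In parental HCT15 FBL RNA was 182 and 127 CPM, near the vector line, and footprints were 578 and 699, between the vector line and COPS7B. The vector line was not tested against the parental line. The FBL RNA call was lost with close pairs summed (1.27, adjusted p = 0.085) and without vector INPUT replicate 1 (1.09, adjusted p = 0.18), vector INPUT replicate 2 (1.40, adjusted p = 0.06) or COPS7B INPUT replicate 1 (1.06, adjusted p = 0.15). The footprint call was lost with close pairs summed (1.30, adjusted p = 0.21) and without any single library of the compared RPF groups (1.17 to 1.32).

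NPM1 was called in footprints and not in RNA. Its RNA was 516 and 829 CPM in the vector line and 736 and 665 in COPS7B, which overlap, and the change was 0.06 (SE 0.47, adjusted p = 0.98, edgeR). Footprints were 16.3 and 44.8 CPM against 104 and 102, from 25 and 50 counts against 489 and 524. The footprint change was 1.78 (SE 0.52, adjusted p = 0.023), and the TE change was 1.72 (SE 0.70, unadjusted p = 0.023, adjusted p = 1). Parental HCT15 read 102 and 66.7 CPM, above both vector libraries and at or below COPS7B. The footprint call was lost with close pairs summed (1.87, adjusted p = 0.19), without vector RPF replicate 1 (1.29, adjusted p = 0.24), COPS7B RPF replicate 1 (1.77, adjusted p = 0.094) or COPS7B RPF replicate 2 (1.79, adjusted p = 0.09). NPM1 and FBL, the genes with a pyrimidine start printed above, were thus the 2 called in footprints. That they share it was noticed after their values were seen and has no test.

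The other 8 genes did not pass in either measure. DKC1 RNA was 95.9 and 146 CPM in the vector line and 162 and 201 in COPS7B, and its footprints 70.3 and 131 against 144 and 150. Neither overlapped, but the changes of 0.59 (SE 0.53, adjusted p = 0.56, edgeR) and 0.55 (SE 0.53, adjusted p = 0.55) were near the SE in size. NOP2 footprints, at 72.9 and 113 CPM against 70.5 and 61.8, did not overlap and did not pass (-0.49, SE 0.48, adjusted p = 0.56). NOP56, NOP58, NCL, POLR1A, POLR1B and UBTF had footprint changes between -0.46 and -0.25, with vector and COPS7B libraries overlapping in each case. Without vector RPF replicate 2, each of these changes was positive, at 0.24 to 0.47. Their common direction thus rested on that library.

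In several groups most of the 10 genes differed in the same direction between the replicate libraries. In the vector line replicate 2 was above replicate 1 for 10 of 10 genes in INPUT and 10 of 10 in RPF, with median log2 differences of 0.55 and 1.04. Over all 11938 genes fitted, 45.5% and 48.8% were higher in replicate 2, and the median was 0.00. SW620 INPUT showed 9 of 10 higher in replicate 2 (median 0.88), against 47.7% of all genes, and SW620 RPF 1 of 10 (median -0.97), against 41.3%. HCT15 INPUT showed 0 of 10 higher in replicate 2 (median -0.53), against 51.4% of all genes, and HCT15 RPF 9 of 10 (median 0.74), against 47.4%. The genes were split in 841CON INPUT, the control of every RNA comparison of the cancer lines, with 5 higher and 5 lower in replicate 2, and in COPS7B INPUT, with 6 higher and 4 lower. The 841CON INPUT pair was still the least alike of all pairs over the genes with at least 20 counts. Its chi-square per gene, the difference between replicates set against counting noise, was 65.09. The second highest was 32.312, in HCT15 RPF. INPUT and RPF moved in opposite directions in SW620 and HCT15, and TE takes the ratio of RPF to INPUT. In the close pairs the medians were -0.27 in 841CON RPF, where 10 of 10 were lower in replicate 2 and 24.5% of all genes were higher, -0.02 in COPS7B RPF, and -0.03 and -0.04 in INPUT and RPF of HCT116. Which property of the libraries this follows was not tested.

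The genes whose pattern was most like that of the 10 are given by identifier, since the files do not pair identifiers with names. By Pearson correlation of log2 CPM with the mean log2 CPM of the 10 genes over the 12 INPUT libraries, ENSG00000183431 (r = 0.98) and ENSG00000166788 (r = 0.952) ranked highest. Over the 12 RPF libraries ENSG00000137074 (r = 0.971) and ENSG00000169045 (r = 0.959) did. These are descriptions, and the points share libraries, depth and the 841CON group.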

How the data were processed

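The authors deposited raw read counts per Ensembl gene for 12 INPUT and 12 RPF libraries. Per the submitters' processing notes, GRCh38 was used with HTSeq 2.0.2, STAR 2.7.9 and cutadapt 3.5, with no settings. The sources used here do not give the feature counted or the strand setting. Lines of 8 tables that name no gene entered neither library sizes nor tests. Of the 20426 genes in all tables, 11938 passed edgeR's expression filter (minimum count 10) in both assays and entered 1 edgeR 4.0.16 quasi-likelihood fit in R 4.3.3, with 12 group means and 12 residual degrees of freedom. Scaling by trimmed means was done within each assay. Fitted changes carry edgeR's prior count, and the SE is the change divided by the square root of F. TE was the interaction of assay and population, for genes averaging 10 or more INPUT counts in each of the populations compared. All tests were two-sided, with Benjamini-Hochberg adjustment over all genes tested. The fit was also run on simulated data with large TE changes in well-covered genes. That run does not bear on smaller changes or low counts.

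The 10 genes, the lists and the rule for named genes (all 10, plus the genes most like them) were chosen with earlier results of these data known. Pathway lists and cell type markers were not analysed here, since no table given pairs other identifiers with names. Levels are not compared between genes, as no coding lengths were used. Replicate numbers were not taken to pair samples: same-numbered INPUT and RPF libraries had deviations that correlated between -0.13 and 0.25. Alternatives were other scalings, DESeq2 1.42.0, no filter, at least 50 counts, only the compared libraries, a replicate block, close pairs summed and each library left out. A group left with 1 library was assumed to have the spread of the rest.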

Additional observations from a re-analysis of the deposited data

Results flagged for a closer look

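The effect against 841CON differed among HCT116, HCT15 and SW620 for 8 gene measures, by an F test in edgeR with Benjamini-Hochberg adjustment over all genes tested. These were 4 of 10 for RNA, where 45.9% of all genes differed, and 4 of 9 for TE, where 52.8% did. Neither share is above that of all genes. For RNA the adjusted p was 0.0042 for FBL, 5.4e-04 for NOP2, 0.0082 for NOP56 and 0.022 for UBTF. For TE it was 0.0028 for NPM1, 0.0054 for FBL, 0.011 for DKC1 and 1.7e-04 for POLR1A. The NOP2 value rests on 0 to 15 INPUT counts per library, and the TE values of NPM1 and DKC1 on 0 to 12 SW620 footprint counts per library. With 2 libraries per group, single libraries could not be screened as outliers.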

How the results depend on the processing

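Of 116 log2 changes, 45 were called, 19 of these in every alternative run, and no called change reversed. Of the 71 others, 43 changed sign in some alternative. With close pairs summed, the genes called numbered 3 (mRNA), 4 (footprints) and 1 (TE) in HCT116, 3 for footprints in HCT15, 1 for footprints and 0 for TE in SW620, 0 for mRNA and 0 for footprints in COPS7B, and 1 for mRNA and 1 for TE among the 3 cancer lines. That setting leaves fewer residual degrees of freedom. With at least 50 counts they numbered 0 for TE in HCT116, where 8 genes could be tested and POLR1A could not. In SW620 they numbered 1 for mRNA, 1 for footprints and 0 for TE, where 1 gene could be tested. For footprints in COPS7B the number was 1 of 8 genes tested, and NPM1 could not be tested. Among the cancer lines 1 gene could be tested, with 1 call for mRNA and 0 for TE. With the replicate block, which pairs INPUT and RPF libraries of 1 number, TE calls numbered 1 in HCT116 and 0 in SW620, and no other count moved by over 1.5 times. The numbers were not found to pair the samples. In SW620 TE calls numbered 1 with library totals only, 4 with no filter and 0 with only the compared libraries. Leaving out 1 library at a time gave 5 to 6, 7 to 7 and 1 to 3 genes called for mRNA, footprints and TE in HCT116, 5 to 8, 3 to 5 and 0 to 1 in HCT15, 4 to 8, 1 to 2 and 0 to 3 in SW620, 0 to 1, 0 to 1 and 0 to 0 in COPS7B, and 3 to 5 for mRNA and 3 to 4 for TE among the cancer lines. Depth limits the SW620 footprints most, where NPM1, DKC1, UBTF and POLR1A had 0 to 2 counts in at least 1 library.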
